A study of Mus musculus with 6 samples.

Results

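Trimethylation and dimethylation of lysine 79 of histone H3 (H3K79me3 and H3K79me2) were compared gene by gene in mouse leukemic progenitors carrying wild-type MLL-AF9 (WT). Every gene with a summed count of 200 or more over the WT H3K79me3 and WT H3K79me2 libraries was kept, which gave 10611 of the 24012 genes in the table. H3K79me3 was precipitated with Diagenode antibody pAb-068-050 and H3K79me2 with Abcam antibody ab3594. The cells were primary hematopoietic progenitors from mouse bone marrow that had received the fusion gene by retrovirus. The same 2 marks were mapped in cells made with the fusion mutants D544R and D546R, so every cell population in the series carried a retroviral MLL-AF9, and no population without a fusion was used here. There was 1 library of each mark for each of the 3 genotypes. The labels do not say how many mice or cultures stand behind a library.

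DOT1L is the enzyme that methylates lysine 79 of histone H3, and it adds the methyl groups step by step, so that the mono-, di- and trimethylated forms can occur in the same gene. The marks lie over the bodies of transcribed genes, most densely in their first part. MLL-AF9 joins the DNA-targeting part of the MLL protein to the part of AF9 that binds DOT1L and elongation factors, and genes such as the HoxA genes and Meis1 are its classical targets. The title of the study ties the D544R and D546R mutants to the degree of DOT1L recruitment.

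The libraries held 5859821 H3K79me3 and 5993741 H3K79me2 counts in WT, 5207395 and 4287873 in D544R, and 6652571 and 3558329 in D546R. Each count is a read over a gene region, so that a region of a gene that lies inside or beside another gene shares reads with it, as 4145 (39.1%) of the tested regions did. Reads per independent fragment were estimated from the share of short regions with no count, taking all such regions as reachable, since duplication itself was not measured. The estimates were 9.73 for WT H3K79me3 and 4.05 for WT H3K79me2, and 18.6 and 4.78 in D546R. Intervals given here with a log2 ratio or a level are 95% intervals after dividing the counts by that number, called fragment intervals, and cover counting error only. Antibody, library and mark cannot be told apart in a single pair of libraries, and neither an input library nor a spike-in was used here. A lower mark in every cell and fewer cells with the mark cannot be told apart either.

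Levels are given as counts per kb of region, as a fold over the pooled level of 1122 olfactory receptor genes, which are silent in blood cells. That pooled level was 5.29 counts per kb in WT H3K79me3 and 3.60 in WT H3K79me2. Genes of leukocyte and myeloid identity carried both marks, and progenitor markers did so unevenly. Ptprc, which encodes the pan-leukocyte phosphatase CD45, had a level of 4.18-fold in H3K79me3 and 8.06-fold in H3K79me2, and Spi1, the myeloid factor PU.1, 3.35-fold and 6.94-fold. Cebpa, which directs granulocyte and monocyte fate, had 4.81-fold and 6.05-fold. Of the other progenitor markers, Kit (0.992-fold and 1.95-fold), Cd34 (1.10-fold and 1.19-fold) and Mpo (1.69-fold and 2.07-fold) were low in both marks, and Elane had 0.920-fold and 3.55-fold. The T cell and B cell factor genes Bcl11b (0.741-fold and 0.701-fold) and Pax5 (0.795-fold and 0.789-fold), the endothelial genes Cdh5 (0.417-fold and 0.742-fold) and Kdr (0.762-fold and 0.942-fold) and the stromal gene Pdgfra (0.596-fold and 0.811-fold) were below the olfactory level in both. Among other markers of unlike cell types, Cd3e had 0.765-fold and 1.62-fold, and the stromal gene Col1a2 1.53-fold and 0.983-fold. The density of a mark is not a measure of expression, and Klf1, an erythroid factor gene, had 2.08-fold in H3K79me3 on 59 reads and 0.621-fold in H3K79me2 on 12 reads.

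H3K79me3 stood out from silent genes far less than H3K79me2. Over all genes the WT level was 1.08-fold in H3K79me3 and 1.62-fold in H3K79me2, and the 90th percentile of the tested genes was 2.73-fold and 5.74-fold. The densest 10% of the tested genes in the D544R libraries, which cover 4.04% of the region length of tested genes, held 15.9% of their WT H3K79me3 counts and 21.9% of their H3K79me2 counts. The same set held 13.6% and 22.7% in D544R and 11.4% and 21.2% in D546R, so the gap between the marks was narrowest in WT. The set was ranked by the mean level of both marks, in which H3K79me2 weighs more because of its larger range.

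Genes marked by H3K79me3 were for the most part also marked by H3K79me2. A level of at least 2-fold with a fragment interval above 1 was reached by 1810 genes (17.1%) in WT H3K79me3 and by 4054 genes (38.2%) in WT H3K79me2. The 1725 genes that met the rule in both marks were 95.3% of the H3K79me3 list and 42.6% of the H3K79me2 list. In D544R the shared genes were 98.3% and 29.4% of the lists, and in D546R 98.0% and 26.9%. Genes marked at this level by H3K79me3 whose H3K79me2 level was below that of the olfactory genes numbered 26 in WT, 2 in D544R and 5 in D546R, and 0 genes did so in all 3 genotypes.

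**Figure D1:**
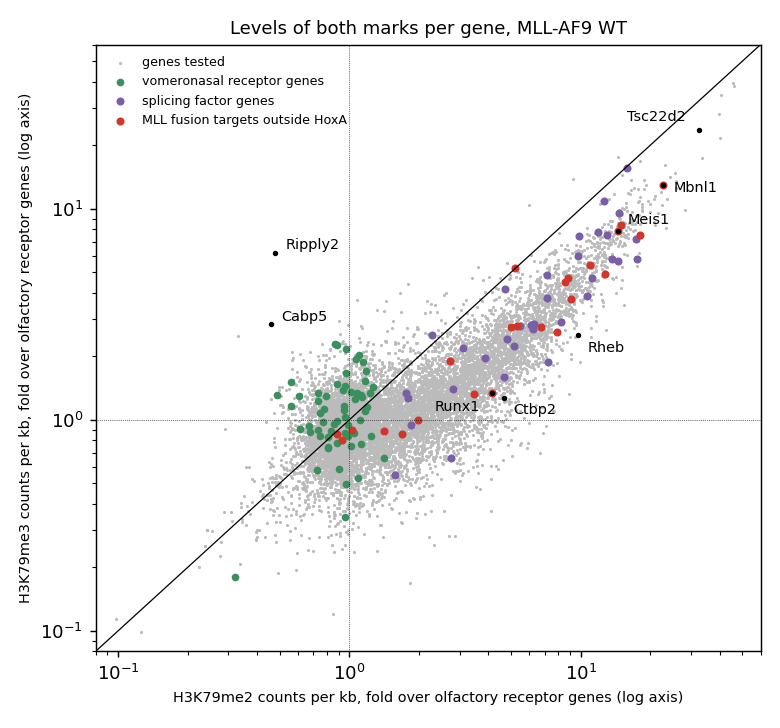
Level of H3K79me3 (y axis) against H3K79me2 (x axis) in WT cells for the 10611 genes tested, as counts per kb over the pooled level of olfactory receptor genes, both axes logarithmic. The diagonal marks equal folds and the dotted lines the olfactory level; most marked genes lie below the diagonal, vomeronasal receptor genes lie around the crossing of the dotted lines, and Ripply2 and Cabp5 lie far above the diagonal.

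The ratio of the marks was then taken as log2 of H3K79me3 over H3K79me2 after median-of-ratios scaling of the WT pair, with size factors of 0.988 and 1.01. By that scaling the median gene has no difference, and the ratio ranks genes relative to that median. The median over the tested genes was 0.01, the central 50% of genes lay between -0.47 and 0.53, and the extremes were -2.87 and 4.22. A gene was called when its ratio was at least 2-fold and its counting interval excluded no change, which is a rule of size and not a test. By it 711 genes (6.7% of those tested) were relatively higher in H3K79me3 and 639 (6.02%) relatively lower. With olfactory receptor genes as the zero point, 110 were higher and 2958 lower, because that scaling moves the median gene to -0.57. The share of called genes on the higher side was thus 52.7% by the median gene and 3.59% by the olfactory genes.

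Genes at the edge of the summed count of 200 were like each other. The 299 genes with 200 to 209 counts had a median log2 ratio of 0.10, and the 289 genes with 190 to 199 counts one of 0.03. Of these, 39 of 299 and 32 of 289 were past the rule on the higher side, and 27 and 38 on the lower side. Over all tested genes the shares were 6.7% and 6.02%, so calls were more frequent near the edge, where counts are few. The larger side was the higher one just inside the edge and the lower one just outside it.

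The genes relatively high in H3K79me3 were mostly genes at the silent level in both marks. In the D544R libraries, which played no part in calling them, the 711 genes had a median level of 0.93-fold in both H3K79me3 and H3K79me2, and 97.3% of them had a D544R H3K79me2 level under 2-fold, against 60.5% of the genes called neither way. In WT itself 82 of the 711 had an H3K79me3 level of at least 2-fold. The 639 genes relatively low in H3K79me3 were different: their median D544R levels were 1.18-fold in H3K79me3 and 3.82-fold in H3K79me2. In WT 542 of them were marked by H3K79me2 at 2-fold or more, and 51 by H3K79me3. The same signs were common in the mutants, but the scaling by the median gene puts silent-level genes above 0 in each genotype. The ratio was above 0 for 91.3% of the 711 genes in D544R and for 73.1% in D546R, and it was below 0 for 92.6% and 89.7% of the 639 genes. Of the genes called neither way, 48.6% lay above 0 in D544R and 43.4% in D546R, and 51.4% and 56.6% below. Those genes span all levels of the marks, so they are no match for the mostly silent 711. The median log2 ratio of the 711 genes was 0.76 in D544R and 0.48 in D546R. Vomeronasal receptor genes, also at the silent level, had medians of 0.76 and 0.79. The sign of the 711 genes in the mutants is thus no separate support for their call.

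The 3 genotypes were also used as replicates of the mark contrast. In edgeR's quasi-likelihood test with genotype as a block and Benjamini-Hochberg adjustment, 1643 genes (15.5%) were higher in H3K79me3 and 2377 (22.4%) lower at an adjusted p under 0.05, and 2294 and 3018 genes had an unadjusted p under 0.05. With olfactory genes as the zero point the same test called 5 genes higher and 5113 lower. In WT 331 of the 711 higher genes and 461 of the 639 lower genes were among those the test called. The WT libraries are part of the test, so this overlap is not independent of the WT calls. Since WT and mutants differ by design, the spread in this test holds any difference of the contrast between genotypes, and without the D544R libraries the counts were 96 higher and 664 lower. Without the WT libraries the test called 981 genes higher and 2160 lower.

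The ratio was lower in genes more densely marked in D544R. Genes were put into 10 equal groups by their mean level in the D544R libraries, so that neither WT library set the order. That mean rests more on H3K79me2, with D544R medians in group 10 of 8.77-fold in H3K79me2 and 3.01-fold in H3K79me3. A lower ratio of H3K79me3 over H3K79me2 in dense groups is therefore partly built into the order, and how far was not tested. The median WT log2 ratio was 0.47, 0.53, 0.49, 0.44 and 0.29 in groups 1 to 5, -0.02 in group 6, and -0.33, -0.49, -0.56 and -0.49 in groups 7 to 10. The place of the change of sign is set by the scaling, which puts the median gene near 0 and so the change near the middle groups. With olfactory genes as the zero point the median gene lay at -0.57, so the change has no meaning of its own. The median H3K79me2 level was 1.20-fold in group 5 and 2.19-fold in group 7. The median H3K79me3 level was still 0.967-fold in group 5 and 1.17-fold in group 7, and was at 2.05-fold in group 9 and 3.81-fold in group 10. Genes relatively high in H3K79me3 numbered 134 in group 1 and 3 in group 10, and genes relatively low 13 and 109.

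From group 7 to group 10, the H3K79me3 part above the silent level was larger relative to H3K79me2 at the medians of denser groups. The excess ratio, which is the part of the H3K79me3 level above the olfactory genes divided by the same part of the H3K79me2 level, was 0.144, 0.221, 0.301 and 0.401 at the WT medians of groups 7, 8, 9 and 10. In D546R, whose libraries also had no part in the order, it was 0.0358, 0.10, 0.146 and 0.208. The median of the 4 lowest groups was also used as the background, a choice made after the values were seen. The WT values of groups 7 to 10 were then 0.281, 0.309, 0.366 and 0.453, so the order held there and group 7 moved most. With this background groups 5 and 6 had 0.473 and 0.335 in WT and 0.186 and 0.176 in D546R. The order thus did not extend below group 7. Among doubly marked genes alone the order was not kept: their median excess ratio was 0.852 for the 30 such genes of group 7, 0.549 for 158 in group 8, 0.404 for 555 in group 9 and 0.414 for 981 in group 10. In the sparser groups few genes reach 2-fold in H3K79me3, and those that do were picked for it. The plain log2 ratio had no such order between groups 8 and 10, where it stayed between -0.56 and -0.49.

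**Figure D2:**
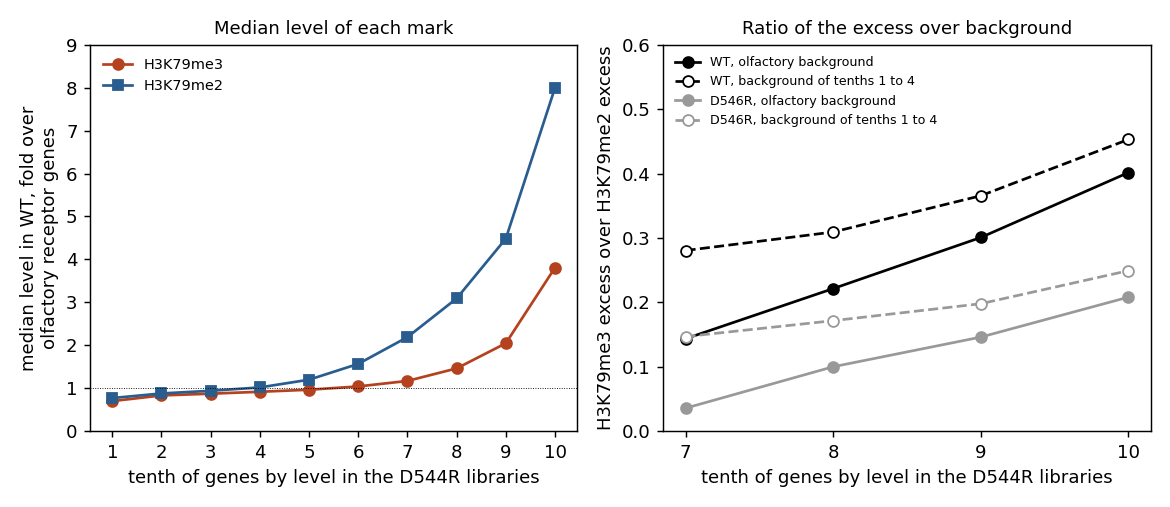
Left, median WT level of H3K79me3 and H3K79me2 (fold over olfactory receptor genes) in 10 equal groups of genes ordered by their level in the D544R libraries; H3K79me2 leaves the dotted silent level around group 5 and H3K79me3 around group 7. Right, ratio of the excess of H3K79me3 over that of H3K79me2 in groups 7 to 10 of WT and D546R with each of the 2 backgrounds, higher in denser groups in all 4 lines.

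Longer regions had higher ratios over all genes, but no rise of that size was seen within the density groups. The median log2 ratio was -0.42 for regions under 5 kb, -0.39 for 10 to 20 kb, 0.07 for 50 to 100 kb and 0.53 for the 302 regions of 400 kb or more. By the 2-fold rule 0 of those 302 were called in WT, beside 6.7% higher and 6.02% lower of all genes. Over the 3 genotypes edgeR called 239 higher (79.1%, beside 15.5%) and 4 lower (1.32%, beside 22.4%). These regions lay at the silent level, with medians of 0.850-fold in H3K79me3 and 0.871-fold in H3K79me2, where this scaling gives ratios above 0. With olfactory genes as the zero point edgeR called only 5 genes higher among all tested. Within density group 10 the median was -0.47 for regions under 20 kb, -0.50 for 20 to 50 kb, -0.49 for 50 to 100 kb and -0.49 for 100 kb or more. In the sparse group 4 the same medians were 1.02 (26 regions), 0.42, 0.42 and 0.44. Only in group 8 did the longest regions have the highest median of all 4 lengths, -0.38 against -0.46 under 20 kb. Leaving out regions under 20 kb, the longest were also highest in group 4 and in group 2. In group 2 the medians were 0.46 for 20 to 50 kb, 0.46 for 50 to 100 kb and 0.54 for 100 kb or more. By chromosome the medians lay between -0.17 for the 491 genes of chromosome 8 and 0.15 for the 684 genes of chromosome 4, apart from the 11 genes of the Y chromosome. The 268 genes of the X chromosome had a median ratio of 0.05 with low median levels in both marks, 0.546-fold and 0.743-fold.

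The listed targets of MLL fusions had higher median levels of both marks than all genes tested. The excess ratio of the doubly marked targets was near that of all doubly marked genes. Binding of the fusion was not measured here. Of 25 listed MLL fusion targets outside HoxA, 23 had enough counts, and their median level was 2.77-fold in H3K79me3 and 5.33-fold in H3K79me2, against 1.06-fold and 1.41-fold over all genes tested. A level of at least 2-fold was reached by 14 of the 23 in both marks. The median excess ratio of those 14 was 0.440, and that of all 1725 doubly marked genes was 0.426, with the central 50% between 0.337 and 0.533. The median log2 ratio of the 23 targets was -0.34, with 18 of 23 below 0. None was called higher and 2 were called lower (8.70%, beside 6.02% of all genes), Runx1 and Lmo2. By edgeR 0 were higher and 10 lower (43.5%, beside 22.4%).

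Meis1, the Hox cofactor that drives leukemic self-renewal with Hoxa9, had 5842 H3K79me3 and 7372 H3K79me2 counts in WT, 4525 and 6154 in D544R, and 1118 and 480 in D546R. Both marks were thus high in WT and D544R and low in D546R. Its WT levels were 7.86-fold in H3K79me3 and 14.6-fold in H3K79me2, with a log2 ratio of -0.30 (fragment interval -0.44 to -0.17). The ratio was -0.75 in D544R and 0.08 in D546R, and over the 3 genotypes edgeR gave an adjusted p of 0.147.

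The other dense targets differed in how much H3K79me3 they carried for their H3K79me2. Mbnl1, a splicing regulator, had 8999 and 10641 counts and levels of 13.0-fold and 22.6-fold, with an excess ratio of 0.557. Jmjd1c, a putative histone demethylase required in MLL-AF9 leukemia, had 5791 and 7067 counts and levels of 8.36-fold and 15-fold, with an excess ratio of 0.527. These 2 genes and Meis1 had the highest H3K79me3 levels among the targets with a summed count of 2000 or more. Cdk6, the G1 kinase gene that MLL-AF9 cells depend on, had 4668 and 8250 counts and levels of 4.91-fold and 12.7-fold, with an excess ratio of 0.333. Its log2 ratio of -0.79 (-0.93 to -0.64) lay below that of Mbnl1, -0.21 (-0.32 to -0.10), with intervals that do not meet. Myb, the progenitor transcription factor, had 557 and 925 counts, levels of 2.77-fold and 6.75-fold and an excess ratio of 0.308.

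Runx1, the master factor of blood stem cell formation, had the lowest ratio of the targets. It had 1603 H3K79me3 and 3396 H3K79me2 counts in WT, 1696 and 2927 in D544R, and 2786 and 3084 in D546R. Its H3K79me2 level in WT was 4.16-fold and its H3K79me3 level 1.34-fold, so that H3K79me3 lay only a little above the silent level. The log2 ratio was -1.05 (-1.30 to -0.81) in WT, -1.09 in D544R and -1.28 in D546R, and edgeR gave -1.13 (SE 0.149, adjusted p = 0.00414). Its relative Runx2 had 5315 and 6755 counts, levels of 4.72-fold and 8.81-fold and a log2 ratio of -0.31 (-0.45 to -0.17), an interval that does not meet that of Runx1. Lmo2, a bridging protein of blood transcription factor complexes, had 356 and 735 counts in WT and a log2 ratio of -1.01 (-1.57 to -0.49).

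Some targets of the list did not reach 2-fold over the olfactory genes in either mark in WT. Flt3, a receptor kinase gene of early progenitors, had 339 and 265 counts and levels of 0.894-fold and 1.03-fold. Mecom, which encodes the stem cell factor EVI1, had 289 and 204 counts and levels of 0.855-fold and 0.886-fold. Pbx3, another Hox cofactor, had 922 and 1230 counts and levels of 0.861-fold and 1.69-fold, with a log2 ratio of -0.38 in WT and 0.62 in D544R. The 2 listed targets below the summed count of 200 did reach 2-fold in H3K79me3. Id2, an inhibitor of differentiation factors, had 106 and 59 counts and levels of 4.67-fold and 3.81-fold over a short region. Sox4, a progenitor transcription factor, had 99 and 19 counts and levels of 3.78-fold and 1.06-fold.

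**Figure D3:**
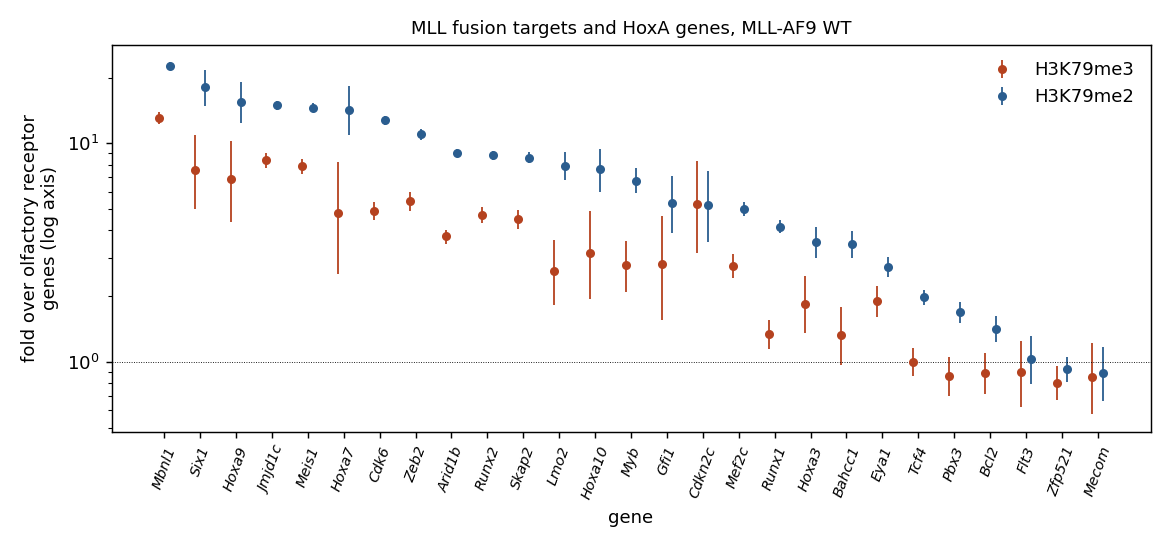
Level of H3K79me3 (left of each pair) and H3K79me2 (right) in WT cells for the tested MLL fusion targets and HoxA genes, as fold over olfactory receptor genes on a log axis, with 95% fragment intervals. H3K79me2 lies above H3K79me3 for every gene drawn but Cdkn2c, where the marks had 5.27-fold and 5.21-fold, and intervals are wide for short regions such as Hoxa7 and Gfi1.

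The HoxA genes with enough counts numbered 4, and all 4 had WT log2 ratios below 0, of which only that of Hoxa7 had a fragment interval that excludes 0. Hoxa9, the homeobox gene at the core of the MLL fusion program, had 227 H3K79me3 and 350 H3K79me2 counts in WT, 282 and 378 in D544R, and 143 and 35 in D546R. Its WT levels of 6.84-fold and 15.5-fold gave an excess ratio of 0.403, and its log2 ratio of -0.59 had a fragment interval of -1.32 to 0.08. Hoxa7 had 125 and 254 counts and a log2 ratio of -0.99 (-1.98 to -0.11), Hoxa10 had 195 and 319 counts and -0.67 (-1.46 to 0.05), and Hoxa3 had 449 and 586 counts and -0.35 (-0.86 to 0.14). By the 2-fold rule 0 of the 4 were called in WT. The median of the 4 genes was -0.63 in WT, -0.69 in D544R and 0.97 in D546R, where H3K79me2 counts were few, and the edgeR adjusted p of the 4 lay between 0.29 at Hoxa3 and 0.828 at Hoxa10. Hoxa7, Hoxa10 and Hoxa3 overlap other regions of the cluster. The 7 remaining HoxA genes had summed counts below 200, with sums from 2 and 30 counts at Hoxa11 to 61 and 65 at Hoxa6.

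Genes of the DOT1L and elongation machinery lay mostly on the low side, 20 of the 23 tested. Of 29 listed genes these 23 had enough counts, with a median log2 ratio of -0.54 and median levels of 1.21-fold in H3K79me3 and 3.30-fold in H3K79me2. In WT 0 were called higher and 5 lower (21.7%, beside 6.02% of all genes). By edgeR 1 was higher (4.35%, beside 15.5%) and 11 lower (47.8%, beside 22.4%). Dot1l itself had 188 and 402 counts, levels of 0.864-fold and 2.71-fold and a log2 ratio of -1.06 (-1.85 to -0.35). Leo1, a subunit of the PAF elongation complex, had 60 and 196 counts in WT and a ratio of -1.67 (-3.17 to -0.46), but -0.06 in D544R. Mllt3, the mouse gene for AF9, had 157 and 168 counts and levels of 0.773-fold and 1.21-fold. Aff3, a large gene of the super elongation complex family, lay at the silent level with 2051 and 1407 counts, levels of 0.856-fold and 0.862-fold and a ratio of 0.58 (0.32 to 0.83).

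Most gene classes for basic cell functions lay on the low side and classes for other tissues on the high side by the median-gene scaling, while mitochondrial ribosomal protein genes lay at 0.01. Splicing factor genes had median levels of 2.88-fold in H3K79me3 and 6.74-fold in H3K79me2 and a median log2 ratio of -0.39, and 25 of the 34 tested were below 0. In WT 0 were called higher and 3 lower (8.82%, beside 6.02% of all genes), while edgeR called 0 higher and 16 lower (47.1%, beside 22.4%). Chromatin regulator genes had a median of -0.40 over 47 genes, with 0 called higher and 2 lower (4.26%) in WT and 0 and 27 (57.4%) by edgeR. Cytosolic ribosomal protein genes had a median of -0.51 over 32 genes at levels of 3.66-fold and 7.60-fold, with 0 higher and 3 lower (9.38%) in WT and 0 and 5 (15.6%) by edgeR, the last a smaller share than over all genes. The doubly marked members of these 3 classes had median excess ratios of 0.399, 0.413 and 0.390, close to the 0.426 of all doubly marked genes. Cell cycle inhibitor and p53 genes had the lowest class median, -0.67 over 15 genes. Of them 0 were higher and 4 lower (26.7%) in WT and 0 and 5 (33.3%) by edgeR.

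The lowest members of these lists lay well below their class medians. Kdm2b, a histone demethylase gene, had 150 and 387 counts and levels of 0.896-fold and 3.39-fold, and its log2 ratio was -1.33 (-2.21 to -0.55) in WT, -1.20 in D544R and -1.11 in D546R (edgeR adjusted p = 0.00600). Sesn2, a stress-induced p53 target, had 76 and 214 counts and ratios of -1.45 (-2.76 to -0.37) in WT, -1.28 in D544R and -1.56 in D546R. Prpf8, the core splicing factor, had 86 and 245 counts and ratios of -1.47 (-2.68 to -0.45), -0.51 and -0.63 in the same order. These 3 had H3K79me3 below the silent level, unlike the median members of their classes. The regions of Kdm2b and Prpf8 overlap another. Among granulocyte and monocyte progenitor genes the median was -0.26 over 11 genes, with none called in WT and 4 lower by edgeR (36.4%, beside 22.4%). Fcgr2b, an inhibitory antibody receptor, was the lowest with 195 and 372 counts and -0.90 (-1.67 to -0.19).

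Classes at the silent level had positive medians by the median-gene scaling; with the olfactory zero point the vomeronasal, lymphoid and developmental medians stayed above 0 (0.23, 0.03 and 0.08) and the protocadherin and collagen medians lay below it (-0.14 and -0.02). Vomeronasal receptor genes, which are used in pheromone sensing, had a median log2 ratio of 0.82 in WT, 0.76 in D544R and 0.79 in D546R over 61 genes, and median WT levels of 1.11-fold and 0.948-fold. In WT 23 were called higher (37.7%, beside 6.7% of all genes) and 0 lower, and edgeR called 17 higher (27.9%, beside 15.5%) and 0 lower. Protocadherin genes had a median of 0.44 over 43 genes, at 0.624-fold and 0.911-fold. In WT 3 were higher (6.98%, near the 6.7% of all genes) and 0 lower, and by edgeR 17 (39.5%) and 0. Of these genes 22 lay above 0 and 21 below, and only 3 of the 43 regions overlap no other, so the members share reads. Collagen genes had 0.57 over 35 genes, with 3 higher (8.57%) and 0 lower in WT and 17 (48.6%) and 1 (2.86%) by edgeR. Lymphoid genes had 0.62 over 8 genes, with Blk, a B cell kinase, highest at 368 and 156 counts and 1.27 (0.59 to 1.96). Developmental regulators of other tissues had 0.67 over 7 genes, with Pax6, an eye and brain factor, highest at 225 and 60 counts. Pooled over all their members, tested or not, the vomeronasal genes had 0.964-fold and 0.877-fold and the developmental regulators 0.748-fold and 0.716-fold. The level of these genes was thus near that of the olfactory genes in both marks.

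**Figure D4:**
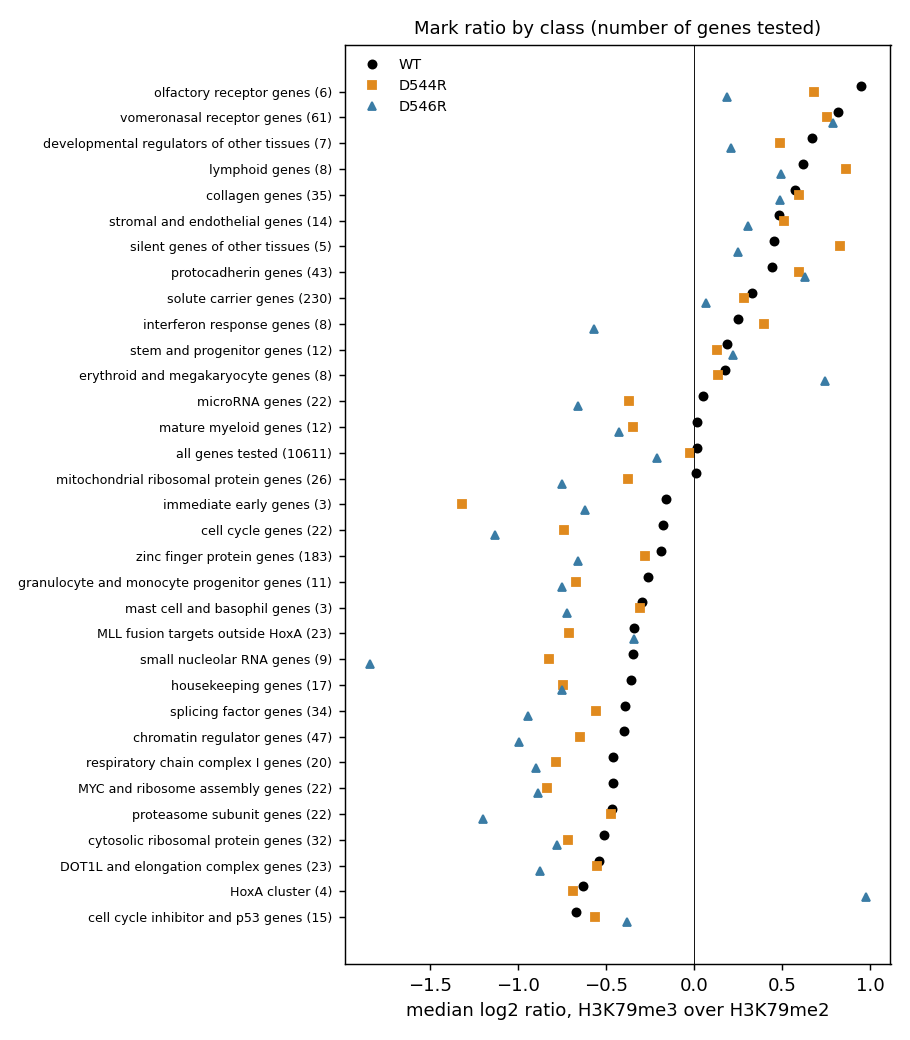
Median log2 ratio of H3K79me3 over H3K79me2 for each class of genes in WT, D544R and D546R cells, with the number of genes tested in brackets. Classes of receptors and tissue genes at the silent level lie right of 0 in all 3 genotypes by this scaling (with the olfactory zero point 11 of 32 WT class medians change sign), and most classes of basic cell functions lie left of 0; the HoxA genes lie left of 0 in WT and D544R and at 0.97 in D546R.

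Genes with large counts gave the same split with narrower intervals. Among the 1317 genes with a summed count of 2000 or more, 9 (0.683%) were called higher and 17 (1.29%) lower. All 9 and all 17 kept their sign in both mutants, and edgeR called every one in the same direction. The WT libraries that chose these genes are part of that test, so its calls are not independent of the choice. The 9 higher genes had median ratios of 0.75 in D544R and 0.68 in D546R. Genes at the silent level lie above 0 by this scaling, so the sign of the 9 adds nothing to that. The 9 higher genes had a median region of 311.8 kb, and none reached 2-fold over the olfactory level in either mark. Nol4, a gene of the nervous system, had 2102 and 963 counts, levels of 1.13-fold and 0.763-fold and a log2 ratio of 1.16 (0.89 to 1.43). Nalcn, a sodium leak channel gene, had 2030 and 1027 counts, levels of 1.09-fold and 0.809-fold and a ratio of 1.02 (0.75 to 1.29). Prex2, an activator of the GTPase Rac, had 1925 and 950 counts, levels of 1.17-fold and 0.845-fold and a ratio of 1.05 (0.77 to 1.33). Col14a1, a collagen gene, and Adamts12, a secreted protease gene, were also among the 9.

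The 17 genes lower in H3K79me3 were all marked by H3K79me2, and 7 of them also by H3K79me3 at 2-fold or more. Rheb, the small GTPase that activates the growth kinase mTORC1, had 552 H3K79me3 and 1462 H3K79me2 counts in WT, 647 and 1007 in D544R, and 844 and 919 in D546R. Its WT levels were 2.51-fold and 9.77-fold, and its log2 ratio of -1.37 (-1.80 to -0.96) was the lowest of the large-count genes. edgeR gave -1.18 over the 3 genotypes (SE 0.177, adjusted p = 0.00414). Ctbp2, a transcriptional corepressor, had 932 and 2327 counts in WT, levels of 1.27-fold and 4.66-fold and ratios of -1.19 in D544R and -1.63 in D546R. Tbl1x, a subunit of nuclear receptor corepressor complexes, had 703 and 1659 counts, levels of 0.880-fold and 3.05-fold and a ratio of -1.20 (-1.59 to -0.84). Ago2, the slicing protein of RNA interference, had 970 and 2198 counts and a ratio of -1.15 (-1.47 to -0.84). The 17 genes had a median level of 1.90-fold in H3K79me3 and 6.35-fold in H3K79me2, beside 2.77-fold and 5.33-fold for the fusion targets.

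**Figure D5:**
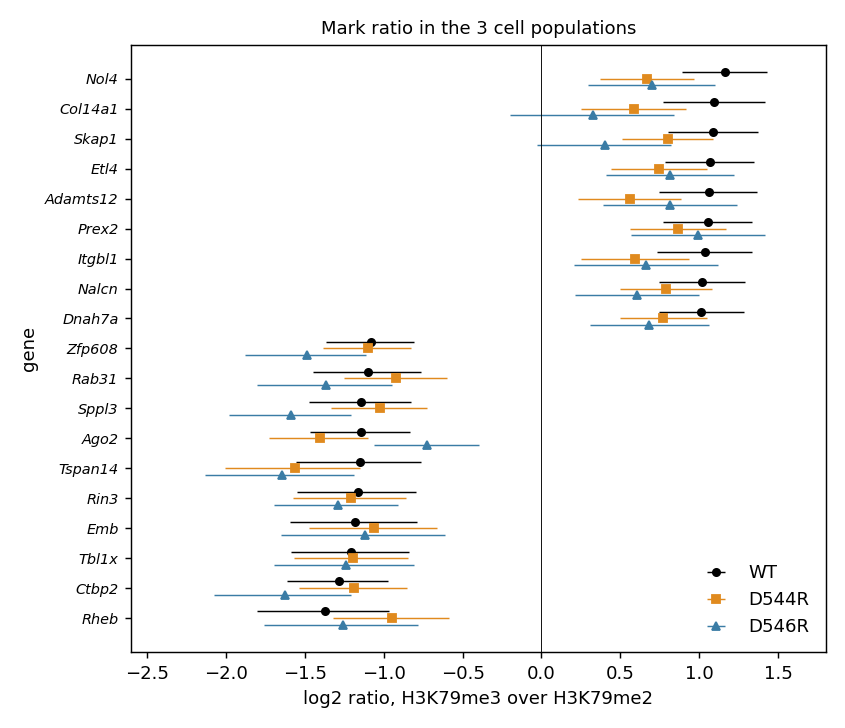
Log2 ratio of H3K79me3 over H3K79me2 in WT, D544R and D546R cells for the named genes with a summed WT count of 2000 or more, with 95% fragment intervals. The 9 genes called higher in WT lie right of 0 and the 10 lowest genes, from Rheb to Zfp608, lie left of 0 in all 3 genotypes.

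At the other end of the densely marked genes were those with the most H3K79me3 for their H3K79me2, chosen after the values were seen as the highest ratios of density group 10 with a summed count of 2000 or more. Of the 331 such genes, 0 were called higher and 10 lower, and their median log2 ratio was -0.43. Tsc22d2, a stress-responsive leucine zipper gene, had 6649 H3K79me3 and 6213 H3K79me2 counts in WT, 5275 and 4902 in D544R, and 728 and 915 in D546R. Its WT levels were 23.7-fold and 32.5-fold, among the highest of all genes named here, and its excess ratio was 0.721. Smc4, a condensin subunit, had 1967 and 1862 counts and an excess ratio of 0.702. Msl2, a ubiquitin ligase of a histone acetyltransferase complex, had 2098 and 2110 counts and an excess ratio of 0.660. These genes were nearly equal in raw counts of the marks in WT, and in D546R their log2 ratios lay at -1.47, -1.59 and -0.98. The median of all 331 genes was also lower in the mutants, -0.76 in D544R and -1.22 in D546R. Among the 10 highest, Sfi1, a centrosome gene, was the only member with a ratio above 0 in every genotype, with 0.31 in WT, 0.58 in D544R and 0.57 in D546R.

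The 2 highest ratios among the named genes belonged to Ripply2 and Cabp5, and both lay below the olfactory level in H3K79me2. Ripply2, a corepressor of somite formation in the embryo, had 209 H3K79me3 and 11 H3K79me2 counts in WT, 65 and 10 in D544R, and 26 and 0 in D546R. Cabp5, a calcium-binding protein of the retina, had 191 and 21 counts in WT, 102 and 9 in D544R, and 69 and 4 in D546R. H3K79me3 exceeded H3K79me2 for both genes in every genotype. Their regions are short, 6.38 kb for Ripply2 and 12.7 kb for Cabp5, and passed the count minimum through their WT H3K79me3 counts. At the olfactory level in both marks, regions of such length fall below that minimum and are not tested. The minimum thus admits short regions only where a mark is high, which favors extreme WT ratios among them. The WT log2 ratio was 4.22 (2.48 to 6.83) for Ripply2 and 3.19 (1.78 to 4.96) for Cabp5, at H3K79me3 levels of 6.2-fold and 2.84-fold. In D546R the H3K79me3 levels were 0.628-fold and 0.835-fold, so that the mark was not above the silent level there. The region of Ripply2 (NM_001037907) lies on chromosome 9 from 86908371 to 86914751 and that of Cabp5 (NM_013877) on chromosome 7 from 13981503 to 13994227, in mm9 as the table gives them.

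Over the 3 genotypes edgeR gave a log2 ratio of 3.15 for Cabp5 (SE 0.561, adjusted p = 0.00471). With olfactory genes as the zero point the value was 2.92 for Ripply2 (SE 0.811, adjusted p = 0.0114) and 2.48 for Cabp5 (SE 0.584, adjusted p = 0.00463), and these were among the 5 genes the test then called higher. The other 3 of the 5 were Ankrd42, Gm5549 and 4833423E24Rik, with smaller ratios of 0.69, 1.38 and 0.92. All 5 were named because of this call, after the values were seen. Ripply2 and Cabp5 entered the test through their WT H3K79me3 counts, which are part of it. Their p-values are therefore not independent of that selection.

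Promoter sequences are shown for the 2 outlying genes beside Meis1, the best known target of the fusion, because H3K79 marks begin near the start of a gene and the 3 starts differ in base composition. Each runs from 250 bases before the start to 50 after it on the gene's own strand, from RefSeq on build GRCm38.p6, with CpG dinucleotides in capitals. The places are chr9:87015287-87015586 for Ripply2 (plus strand), chr7:13397905-13398204 for Cabp5 (plus strand) and chr11:19018920-19019219 for Meis1 (minus strand).
Ripply2: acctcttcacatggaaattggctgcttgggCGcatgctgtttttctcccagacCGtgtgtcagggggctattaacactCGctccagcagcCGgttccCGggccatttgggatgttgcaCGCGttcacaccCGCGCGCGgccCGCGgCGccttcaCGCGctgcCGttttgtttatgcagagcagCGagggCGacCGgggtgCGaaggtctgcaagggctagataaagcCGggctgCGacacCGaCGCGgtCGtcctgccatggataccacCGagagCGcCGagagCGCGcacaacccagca
Cabp5: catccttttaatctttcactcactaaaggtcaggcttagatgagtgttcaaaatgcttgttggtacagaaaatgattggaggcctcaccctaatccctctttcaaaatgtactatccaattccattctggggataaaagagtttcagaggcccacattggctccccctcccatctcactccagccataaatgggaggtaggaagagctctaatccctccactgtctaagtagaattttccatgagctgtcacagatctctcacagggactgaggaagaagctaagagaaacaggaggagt
Meis1: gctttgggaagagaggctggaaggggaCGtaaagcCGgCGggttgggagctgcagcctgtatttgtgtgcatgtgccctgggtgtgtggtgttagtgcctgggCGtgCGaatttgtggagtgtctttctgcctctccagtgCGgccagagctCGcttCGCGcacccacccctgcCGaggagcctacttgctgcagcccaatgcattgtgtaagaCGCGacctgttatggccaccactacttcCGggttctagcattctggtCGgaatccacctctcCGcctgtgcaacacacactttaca
Ripply2 had 32 CpG, a number that 9.24% of the 27025 promoters reach, Meis1 had 15, which 35.2% reach, and Cabp5 had 0. A CpG was present in 94.2% of the promoters, with a median of 7. CG reads the same on both strands, so each CpG was counted once. The pair with the highest ratios thus included a promoter rich in CpG and one with none.

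The remaining genes at the extremes had small counts in the lower mark. Gabra6, a brain receptor subunit, had 185 and 34 counts and a log2 ratio of 2.46 in WT, 1.22 in D544R and -0.52 in D546R. Krt23, a keratin gene, had 174 and 35 counts and 2.33, 0.54 and 0.90 in the same order. Both ratios were smaller in the mutant libraries than in WT. Cyb561a3, which encodes a lysosomal cytochrome, had the lowest ratio of all with 29 and 220 counts, -2.87 (-5.22 to -1.26) in WT, -2.01 in D544R and -0.78 in D546R. Eef1g, a translation elongation factor subunit, had 51 and 278 counts and ratios of -2.40, -0.69 and -1.21, in the same genotypes. Afg3l1, a metalloprotease family gene, came next in WT at -2.83 with 25 and 185 counts, and lay at 0.11 in D544R and 0.91 in D546R. The regions of Cyb561a3, Eef1g and Afg3l1 each overlap another and share reads with it, and of the 10 lowest named genes only Zfp68 overlaps none. The regions of Gabra6, Krt23, Cyb561a3 and Eef1g are also too short to pass the count minimum at the olfactory level in both marks. They were tested because of the high count in their higher mark.

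The mutants gave the same contrast with wider differences. Across genes the WT log2 ratio had a Pearson correlation of 0.68 with that in D544R and 0.52 with that in D546R, and of 0.91 and 0.86 over the 1317 genes with large counts. Genes are not independent replicates, and these points share region lengths and silent-level genes, so the values are a description. The SD of the log2 ratio was 0.69 in WT, 0.75 in D544R and 0.98 in D546R. By the same rule 697 genes (6.57%) were higher and 1172 (11.0%) lower in D544R, and 865 (8.15%) higher and 2493 (23.5%) lower in D546R. Whether the larger number of lower genes in the mutants differs from WT beyond the spread between libraries was not tested, since each genotype had 1 library of each mark.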

How the data were processed

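ChIP-seq of H3K79me3 and H3K79me2 was done in 6 libraries, 1 for each mark and genotype. Per the labels' protocols, the fixed chromatin was sheared to a mean of 300 bp, and a TruSeq ChIP kit and merged sequencing runs were used. The submitters' processing notes name Bowtie, DESeq, bedtools and build mm9. Roles, versions and any removal of duplicates: not given in the sources used here. As deposited, the values are raw counts of reads. Per the file headers, a region spans the gene and 2 kb upstream, and nothing was normalized.

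Counts were scaled by median of ratios over the 2 WT libraries, and log2 ratios used a prior count of 0.5. Counting intervals were exact conditional binomial (Clopper-Pearson) at 95%. Reads per fragment were estimated from the share of 4591 autosomal regions under 5 kb with no count, which takes all of them as reachable. Total counts set the precision printed with each gene. The 6 libraries were tested with edgeR 4.0.16 (quasi-likelihood, genotype as block, Benjamini-Hochberg over 10611 genes; R 4.3.3), with DESeq2 1.42.0 as an alternative, after tests on simulated data. Genotype, not a replicate number, forms the pairs. Python 3.11.15, numpy 2.4.6, pandas 2.3.3 and scipy 1.17.1 were used for the rest.

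The 20 hand-written lists (534 genes, of which 2 are absent from the table), 14 symbol patterns and all tests were chosen with earlier results of these data known. Named genes were the 10 highest and 10 lowest called ratios, the same at a summed count of 2000, fixed genes, and the extremes of each list, leaving out predicted, microRNA, small nucleolar, histone, olfactory and vomeronasal names in the first parts. RefSeq promoters matched 8380 of the tested genes (79.0%), too few, so a check of CpG content over all genes was void. The table gives no strand, so the side of the 2 kb extension was not checked. P-values measure the spread between these libraries.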

Additional observations from a re-analysis of the deposited data

Results flagged for a closer look

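Many genes had ratios of opposite sign in different genotypes. In 3 cases the values lay on opposite sides of 0 by a set rule: for a class, medians at least 1.5-fold from equality both ways, and for a named gene, fragment intervals that exclude 0 both ways. With 1 library of each mark per genotype none of these differences was tested. Over the 4 tested HoxA genes the log2 ratio had its median at -0.63 in WT, against -0.69 in D544R and 0.97 in D546R. D546R held 143 H3K79me3 and 35 H3K79me2 counts at Hoxa9 and 33 and 2 at Hoxa7, and its H3K79me3 library had 18.6 reads per fragment. Their part in the result was not tested.

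Atp5b, a subunit of the mitochondrial ATP synthase, had a log2 ratio of 0.78 (0.02 to 1.52) in WT on 265 H3K79me3 and 158 H3K79me2 counts. In D544R it was -0.88 (-1.84 to -0.01) on 115 and 171, and both intervals nearly reach equality. Its region overlaps another. Pbx3 had a log2 ratio of -0.38 (-0.73 to -0.04) in WT on 922 H3K79me3 and 1230 H3K79me2 counts, against 0.62 (0.35 to 0.89) in D544R on 1642 and 862.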

How the results depend on the processing

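The WT counts, 711 higher and 639 lower, were within 1.5 times of these under total counts, edgeR's TMM factors, a prior count of 5 and fragment intervals. They moved under other settings: to 110 higher and 2958 lower with olfactory genes as the zero point, to 49 and 80 at a summed count of 1000, to 3152 and 3944 with no minimum, and to 2313 and 2054 at 1.5-fold. Among the 6466 regions that overlap no other, 549 were higher and 308 lower, and the share of called genes that were higher was 64.1%. The median ratio was then 0.12.

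The edgeR counts, 1643 higher and 2377 lower, moved to 5 and 5113 with olfactory genes as the zero point, and to 913 and 1272 at a summed count of 1000. With no minimum they were 1058 and 1801. Leaving out the libraries of 1 genotype gave 96 to 2092 higher and 664 to 2301 lower, the lowest of both without D544R. With no replicate block, that is without pairing by genotype, 1827 were higher and 2158 lower. DESeq2 gave 1703 and 2460. The correlation of deviations between the marks of a genotype was 0.0676 for WT, 0.0562 for D544R and 0.116 for D546R.

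All 32 class medians moved with the olfactory zero point and 11 changed sign, and 0 did so under total counts, TMM factors or a prior count of 5. With regions that overlap no other, 10 of 31 class medians moved and that of erythroid genes changed sign (-0.09, against 0.17 with all regions). At a summed count of 1000, 14 of 26 moved and 5 changed sign: stem and progenitor (-0.19), mast cell (0.25), silent (-0.15), mitochondrial ribosomal protein (-0.06) and complex I genes (0.16), each over 8 genes or fewer. At density group 7 the excess ratio was 0.144 in WT and 0.0358 in D546R, and 0.281 and 0.147 with the background of the 4 lowest groups. The cause of these shifts was not tested. Duplicate reads, the single library per mark and the weak enrichment of H3K79me3 over silent genes limit what a gene of few counts can show.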

Other observations

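The short RNA genes that passed the count minimum were dense in both marks. The 22 tested microRNA genes had median levels of 8.67-fold in H3K79me3 and 14.6-fold in H3K79me2, and 12 of them were marked at 2-fold or more in both, with a median excess ratio of 0.672. The 9 tested small nucleolar RNA genes had 9.36-fold and 16-fold, and a median log2 ratio of -0.35 in WT, -0.83 in D544R and -1.85 in D546R. These regions have median lengths of 2.12 and 2.10 kb and many lie inside host genes, whose reads they share, so that a region passed the count minimum only where density was high. Of 1088 microRNA and 105 small nucleolar RNA genes in the table those named above were tested. Pooled over all members the levels were 1.11-fold and 1.73-fold for microRNA genes and 2.75-fold and 6.66-fold for small nucleolar RNA genes.

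Solute carrier genes, which encode membrane transporters, had members called both ways. Of 230 tested, 24 (10.4%) were called higher and 10 (4.35%) lower in WT, near the 6.7% and 6.02% of all genes, and edgeR called 40 (17.4%) higher and 35 (15.2%) lower, beside 15.5% and 22.4%, at median levels of 0.979-fold in H3K79me3 and 1.04-fold in H3K79me2. Of 183 zinc finger protein genes, 9 (4.92%) were called higher and 17 (9.29%) lower in WT, and 10 (5.46%) and 48 (26.2%) by edgeR, at median levels of 1.41-fold and 2.30-fold. Of the mature myeloid genes, Ccr2, a monocyte chemokine receptor, had 174 and 70 counts and levels of 3.67-fold and 2.17-fold in WT, but log2 ratios of 1.34 in WT, -0.33 in D544R and -0.30 in D546R.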
